A study of Mus musculus with 8 samples.

Results

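The genes described here drive the cell division cycle and copy DNA, and they were read in colon RNA of adult mice on Affymetrix expression arrays. Of 40 such genes chosen by name, 36 were measured, with 40 probe sets, out of 14351 genes measured in all. They were split by role into 18 replication genes, of which 16 were measured, and 22 genes of the G2 phase and mitosis, called mitotic below, of which 20 were measured. Gins1, Pcna, Cenpf and Mki67 had no matching probe set and were not analysed here. Cdc6, Ccne2, Cdk2 and Birc5 had 2 probe sets each, with nearly the same values, which were averaged. The arrays comprise 3 titled WT from wild type females, 3 titled STAT5b-/- from mice given in the labels as deficient in the transcription factor STAT5b, and the REF sample from wild type females, given in 2 columns whose values agreed to within 2.47e-07 and which therefore counted as 1 sample. STAT5b-/- replicate 1 was male and the other STAT5b-/- arrays female. The labels give no treatment, exact age or strain and do not say what REF stands for, which part of Stat5b the mutation removes, or whether each replicate was its own animal. P-values thus reflect only the variation among these arrays, and part or all of it may be technical.

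Cells of the colon epithelium divide in the lower part of the crypts and stop dividing as they move up to the surface, so transcripts of dividing cells in whole colon RNA come largely from crypts, with a further part from dividing immune and stromal cells. In late G1 the E2F factors switch on genes that license and copy DNA. Later, MuvB complexes with B-Myb and FoxM1 switch on the genes that build the spindle, align chromosomes and start their separation. STAT5 proteins carry growth hormone, prolactin and cytokine signals, and genes for cell cycle entry are among their known targets in other tissues. The comparison asks how far the transcripts of these genes differ between the arrays labelled STAT5b-/- and WT, and whether replication and mitosis genes do so alike.

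The values are linear ratios in which the WT mean of each probe set is 1, so levels of different genes cannot be compared. Array medians over all probe sets lay between 0.948 and 1.04. Stat5b itself, read by 1 probe set, had ratios of 1.08, 0.930 and 0.993 in WT and of 1.16, 1.17 and 1.26 in the arrays labelled STAT5b-/-, without passing the test (limma adjusted p = 0.175). All 3 arrays labelled STAT5b-/- were thus above all WT arrays for Stat5b, as in 25.0% of all genes. REF, of wild type genotype, was also above all WT arrays, at 1.18. Which part of the transcript the probe set reads relative to the mutation is not given in the labels, so the genotype was not checked by it. STAT5b-/- below names the arrays with that label, and every direction rests on the labels.

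Promoter sequences show what these genes share beside their role. Motifs were searched on both strands in the 250 bases before the transcription start, in RefSeq promoters of build GRCm38.p6. The table held 15 of the 18 listed replication genes and 18 of the 22 listed mitotic genes, measured or not. The CCAAT box, bound by NF-Y (letters CCAAT), was in 88.9% of the mitotic and 73.3% of the replication promoters, against 37.5% of the 27025 genes in the table. The cell cycle homology region that MuvB binds (letters TTTGAA or TTCGAA) was in 44.4% of the mitotic genes and in 3 of the 15 replication genes, against 19.6% of all. Both motifs together were in 44.4% of the mitotic genes and in 7.93% of all. An E2F-like motif (letters TTTNNCGC) was in 40.0% of the replication and 5.56% of the mitotic genes, against 4.94% of all. The STAT motif (letters TTCNNNGAA) was in 1 replication gene, Mcm5, in 0 mitotic genes and in 8.13% of all. A match describes letters and is no evidence of binding. The 150 bases before the start follow for the 3 genes past the test that are in the table (Mcm2, Rrm2, Hmmr), for Cdca3, Ccnb2 and Cdc20, mitotic genes with some of the highest ratios in REF, and for Cdk1, which held every motif but the STAT one. Capitals mark matches to any of the 4 motifs, and no matches overlap in the stretches shown.
Mcm2 (chr6:88898781-88898930, minus strand): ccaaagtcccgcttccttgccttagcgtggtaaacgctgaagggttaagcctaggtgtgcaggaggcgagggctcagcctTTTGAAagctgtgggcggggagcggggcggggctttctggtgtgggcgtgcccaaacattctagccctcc
Rrm2 (chr12:24708104-24708253, plus strand): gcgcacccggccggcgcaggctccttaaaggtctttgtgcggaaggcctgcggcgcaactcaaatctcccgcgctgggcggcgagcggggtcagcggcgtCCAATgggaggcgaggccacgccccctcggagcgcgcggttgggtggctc
Hmmr (chr11:40733438-40733587, minus strand): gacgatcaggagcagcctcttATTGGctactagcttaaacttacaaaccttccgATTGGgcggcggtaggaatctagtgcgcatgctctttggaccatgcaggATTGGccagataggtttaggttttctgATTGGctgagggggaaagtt
Cdca3 (chr6:124830026-124830175, plus strand): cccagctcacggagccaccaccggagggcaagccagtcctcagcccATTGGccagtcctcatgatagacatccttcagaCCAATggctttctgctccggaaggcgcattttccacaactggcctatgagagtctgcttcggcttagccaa
Ccnb2 (chr9:70421555-70421704, minus strand): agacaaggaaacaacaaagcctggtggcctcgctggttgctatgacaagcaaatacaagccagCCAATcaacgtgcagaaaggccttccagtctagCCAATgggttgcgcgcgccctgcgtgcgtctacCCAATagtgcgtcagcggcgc
Cdc20 (chr4:118437344-118437493, minus strand): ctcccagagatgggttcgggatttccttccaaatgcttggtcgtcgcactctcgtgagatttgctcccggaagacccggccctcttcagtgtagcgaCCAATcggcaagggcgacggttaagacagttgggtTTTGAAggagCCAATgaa
Cdk1 (chr10:69352913-69353062, minus strand): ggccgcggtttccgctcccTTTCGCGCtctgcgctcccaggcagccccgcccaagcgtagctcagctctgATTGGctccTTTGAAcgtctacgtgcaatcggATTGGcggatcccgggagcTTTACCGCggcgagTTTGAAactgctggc
In these stretches Cdk1 had 2 homology regions, 2 CCAAT boxes and 2 E2F-like matches, with a homology region 15 to 10 bases before the start. Hmmr had 4 CCAAT boxes, all read from the reverse strand, and no homology region. Mcm2 had a homology region and no CCAAT box in its last 150 bases, and Rrm2 a CCAAT box and no other match.

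In the arrays labelled STAT5b-/-, few of the cell cycle genes passed the test against WT. Mcm2, a subunit of the replicative helicase, and Rrm2, the cell-cycle-regulated subunit of ribonucleotide reductase, rose about 1.5-fold, and Hmmr and Kif20a, which act at the mitotic spindle, fell by a like factor. Of the 36 measured members 4 passed the limma test (adjusted p under 0.05 over all genes), which is 11.1%, against 21.7% of all 14351 genes. The median log2 fold change was 0.03 over the members and 0.0068 over all genes. Of the 16 replication genes 2 rose and 0 fell, where 13.3% of all genes rose, and of the 20 mitotic genes 0 rose and 2 fell, where 8.42% of all genes fell. At an unadjusted p under 0.05 the numbers were 5 of 16 replication and 2 of 20 mitotic genes, against 35.1% of all genes. The groups did not overlap in 7 members that were higher and 4 that were lower in STAT5b-/-, against 25.0% and 16.5% of all genes.

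**Figure D1:**
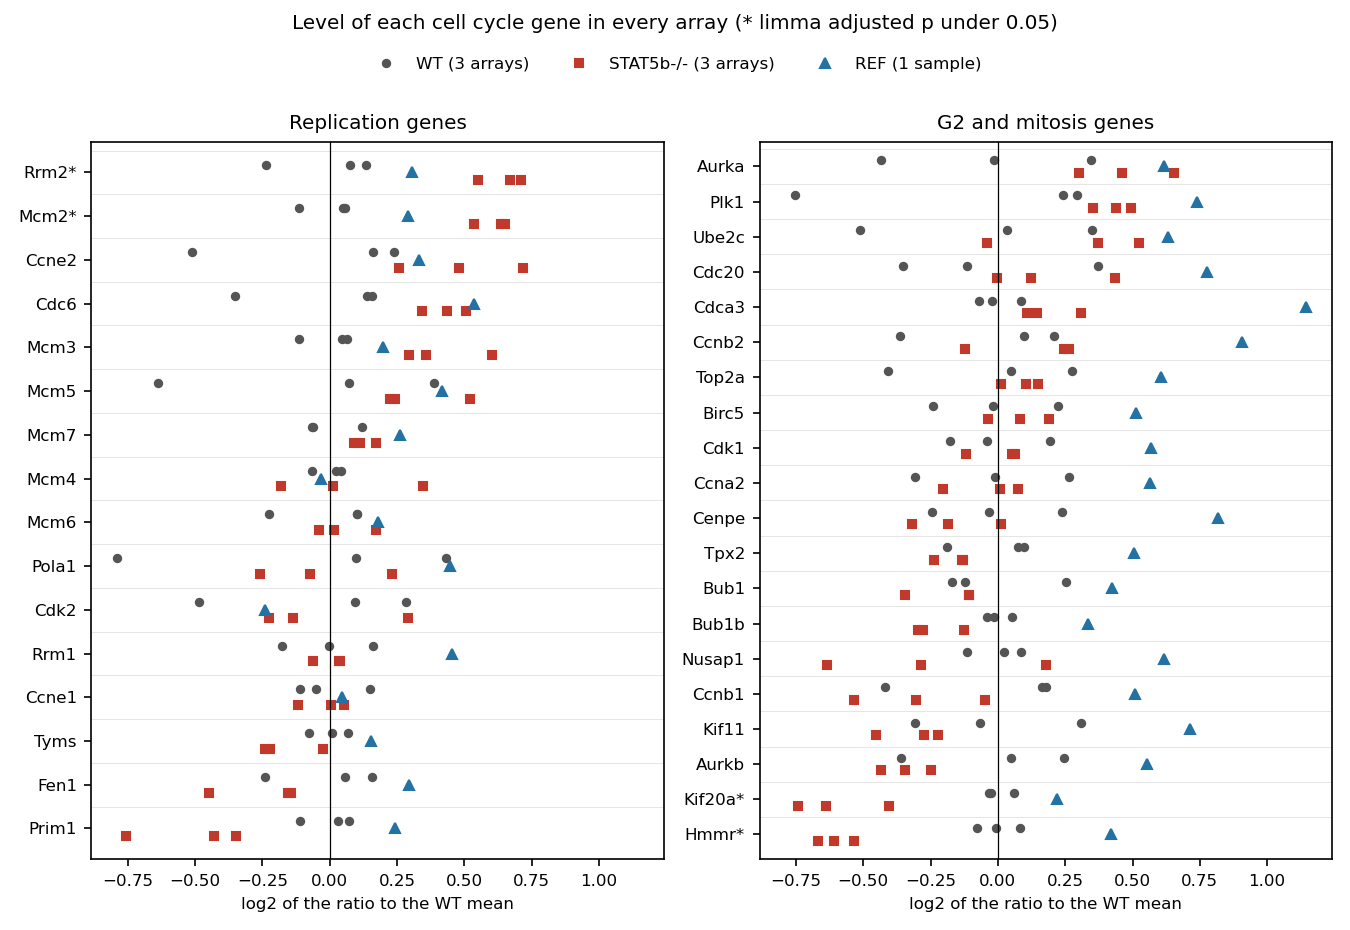
Each cell cycle gene (rows, sorted by fold change within its role) with the log2 of its ratio to the WT mean in every array on the horizontal axis; circles are the 3 WT arrays, squares the 3 STAT5b-/- arrays and triangles REF, and an asterisk marks limma adjusted p under 0.05. STAT5b-/- squares lie clear of the WT circles for Mcm2, Rrm2, Hmmr and Kif20a. They also do for Mcm3, Cdc6, Ccne2, Plk1, Cdca3, Prim1 and Bub1b, which did not pass. The REF triangle is right of every WT circle in all 20 mitotic genes.

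Among the MCM subunits, which unwind DNA at the fork as a ring of 6 proteins, the values were unequal. Mcm2 (probe set NM_008564_at) had ratios of 0.924, 1.04 and 1.04 in WT, of 1.57, 1.55 and 1.45 in STAT5b-/- and of 1.22 in REF. All STAT5b-/- arrays were above all WT arrays and above REF, with a mean ratio of 1.52 ± 0.0662 (SD, n = 3). The log2 fold change was 0.61 ± 0.12 (SE, limma adjusted p = 0.0128), a 1.52-fold rise, and the call ended without STAT5b-/- replicate 2 (adjusted p = 0.0588). Mcm3 had ratios of 1.05, 0.923 and 1.03 in WT against 1.52, 1.23 and 1.28 in STAT5b-/-. These did not overlap either, but its log2 fold change of 0.42 ± 0.14 did not pass (limma adjusted p = 0.0715). Mcm5 lay between 0.642 and 1.31 in WT and between 1.17 and 1.43 in STAT5b-/-, so the groups overlapped. Mcm4, Mcm6 and Mcm7 had log2 fold changes of 0.06 ± 0.16, 0.06 ± 0.14 and 0.13 ± 0.12, and their 95% intervals reached no further than 0.44. The interval for Mcm2 ran from 0.33 to 0.89, which overlaps those of the other subunits; differences between subunits were not tested.

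Of the members that load the helicase or start S phase, which are Cdc6, Ccne2, Ccne1 and Cdk2, 0 passed. Cdc6, the loader of the MCM ring, had ratios of 1.10, 0.785 and 1.12 in WT and of 1.42, 1.35 and 1.27 in STAT5b-/-. The groups did not overlap, yet REF was higher still at 1.45, and the log2 fold change of 0.45 ± 0.17 missed the threshold (limma adjusted p = 0.111). Ccne2, which encodes cyclin E2, had ratios of 1.18, 0.702 and 1.12 in WT, of 1.64, 1.20 and 1.40 in STAT5b-/- and of 1.26 in REF. The groups were narrowly apart, with a difference of 0.52 ± 0.23 on the log2 scale (limma adjusted p = 0.166). Ccne1, which encodes the related cyclin E1, and Cdk2, their kinase partner, had log2 fold changes of -0.017 ± 0.13 and 0.012 ± 0.24.

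Of the enzymes that supply deoxynucleotides and build the strand, Rrm2 alone passed. Rrm2 (NM_009104_at) had ratios of 1.10, 0.849 and 1.05 in WT, of 1.64, 1.46 and 1.59 in STAT5b-/- and of 1.24 in REF. Every STAT5b-/- value was above every WT value and above REF, with a mean ratio of 1.56 ± 0.0892 (SD, n = 3) and a log2 fold change of 0.65 ± 0.14 (SE, limma adjusted p = 0.0196). The call ended when any 1 STAT5b-/- array was left out (adjusted p = 0.0723, 0.0575 and 0.0772 without replicates 1, 2 and 3), while the log2 fold change stayed between 0.62 and 0.70; without replicate 1 all arrays were from females. Rrm1, the partner subunit, had a log2 fold change of 0.011 ± 0.13, with an interval from -0.31 to 0.33. Tyms, which makes thymidylate, had -0.16 ± 0.12. Prim1, the catalytic subunit of the primase, had ratios of 0.927, 1.05 and 1.02 in WT, of 0.592, 0.786 and 0.742 in STAT5b-/- and of 1.18 in REF. Its groups were fully apart, and its log2 fold change of -0.51 ± 0.15 missed the threshold (limma adjusted p = 0.0528). Pola1, the polymerase that primase works with, and the flap nuclease Fen1 had log2 fold changes of 0.053 ± 0.32 and -0.24 ± 0.16. Pola1 was the least certain of these, since its WT ratios ran from 0.579 to 1.35.

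Both mitotic genes that passed encode proteins bound to spindle microtubules. Hmmr (NM_013552_at), which organises spindle poles, had ratios of 1.06, 0.947 and 0.995 in WT, of 0.656, 0.629 and 0.691 in STAT5b-/- and of 1.34 in REF. The STAT5b-/- arrays were all below WT, and REF was above WT. Its mean ratio was 0.659 ± 0.0307 (SD, n = 3), and it fell by 0.60 ± 0.12 on the log2 scale (SE, limma adjusted p = 0.0126), which is 1.52-fold; the call ended without STAT5b-/- replicate 2 (adjusted p = 0.0603). Kif20a (NM_009004_at), a motor of the central spindle needed for cytokinesis, had ratios of 0.981, 1.04 and 0.977 in WT, of 0.598, 0.643 and 0.756 in STAT5b-/- and of 1.16 in REF. It fell by 0.59 ± 0.13 (SE, limma adjusted p = 0.0215), or 1.51-fold. This call ended without WT replicate 1 (adjusted p = 0.054), WT replicate 3 (0.0594), STAT5b-/- replicate 1 (0.0732) or STAT5b-/- replicate 2 (0.0849). Under quantile normalization, which gives all arrays the same spread, 0 of the 4 calls held, with the same signs. The limma adjusted p ran from 0.146 for Kif20a to 0.459 for Rrm2. This scaling left 2.77% of all genes called, with 39.8% of the calls higher where the fit reported here had 61.2%. Before it, the log2 SD over probe sets was 0.289 to 0.363 in WT arrays and 0.646 to 0.737 in STAT5b-/- arrays. Part of this gap is built in, since each probe set was divided by its own WT mean. Making the spread equal widens the WT arrays and narrows the STAT5b-/- arrays. How far that alone ends calls was not tested.

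Of the kinase and cyclins that drive mitotic entry, 0 passed. Cdk1, the mitotic kinase, had ratios of 1.14, 0.972 and 0.883 in WT and of 0.922, 1.04 and 1.04 in STAT5b-/-, and a log2 fold change of 0.0072 ± 0.14 with a 95% interval from -0.33 to 0.35. Its cyclins Ccna2, Ccnb1 and Ccnb2 had log2 fold changes of -0.021 ± 0.18, -0.27 ± 0.21 and 0.15 ± 0.20. Top2a, which untangles sister DNA, had ratios of 1.21, 0.753 and 1.04 in WT and of 1.01, 1.07 and 1.11 in STAT5b-/-. The STAT5b-/- arrays of Top2a thus lay inside the WT range, as they did for 6 of the 36 members, against 19.0% of all genes.

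The mitotic kinases lay on both sides of WT. Aurka, the spindle pole kinase, had ratios of 1.27, 0.740 and 0.990 in WT and of 1.38, 1.57 and 1.23 in STAT5b-/-, a log2 difference of 0.51 ± 0.22 (limma adjusted p = 0.149). Plk1, the polo-like kinase, had 1.23, 0.593 and 1.18 in WT and 1.41, 1.28 and 1.35 in STAT5b-/- (limma adjusted p = 0.267). In Plk1 the groups did not overlap, but WT replicate 2 was far below the other WT arrays, and REF was higher than either group at 1.67. Aurkb, the kinase of the chromosomal passenger complex, had 1.19, 0.780 and 1.03 in WT and 0.787, 0.741 and 0.841 in STAT5b-/- (limma adjusted p = 0.259). Without WT replicate 2 its log2 fold change was -0.49 and it passed (limma adjusted p = 0.0374). Birc5, its partner survivin, had a log2 fold change of 0.091 ± 0.16.

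The remaining mitotic genes did not pass. The checkpoint kinases Bub1 and Bub1b had log2 fold changes of -0.17 ± 0.16 and -0.23 ± 0.12, the spindle motors Kif11 and Cenpe of -0.29 ± 0.18 and -0.15 ± 0.17, and the spindle assembly factors Tpx2 and Nusap1 of -0.16 ± 0.13 and -0.24 ± 0.21. Cdc20 and Ube2c, which act with the anaphase-promoting complex in protein destruction, had 0.22 ± 0.22 and 0.33 ± 0.26, and Cdca3 had 0.19 ± 0.12. Of the 32 members that did not pass, 28 had a 95% interval inside a 2-fold change either way. The intervals of Ccne2, Mcm5, Aurka and Plk1 reached beyond it, up to 1.17 on the log2 scale for Plk1.

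**Figure D2:**
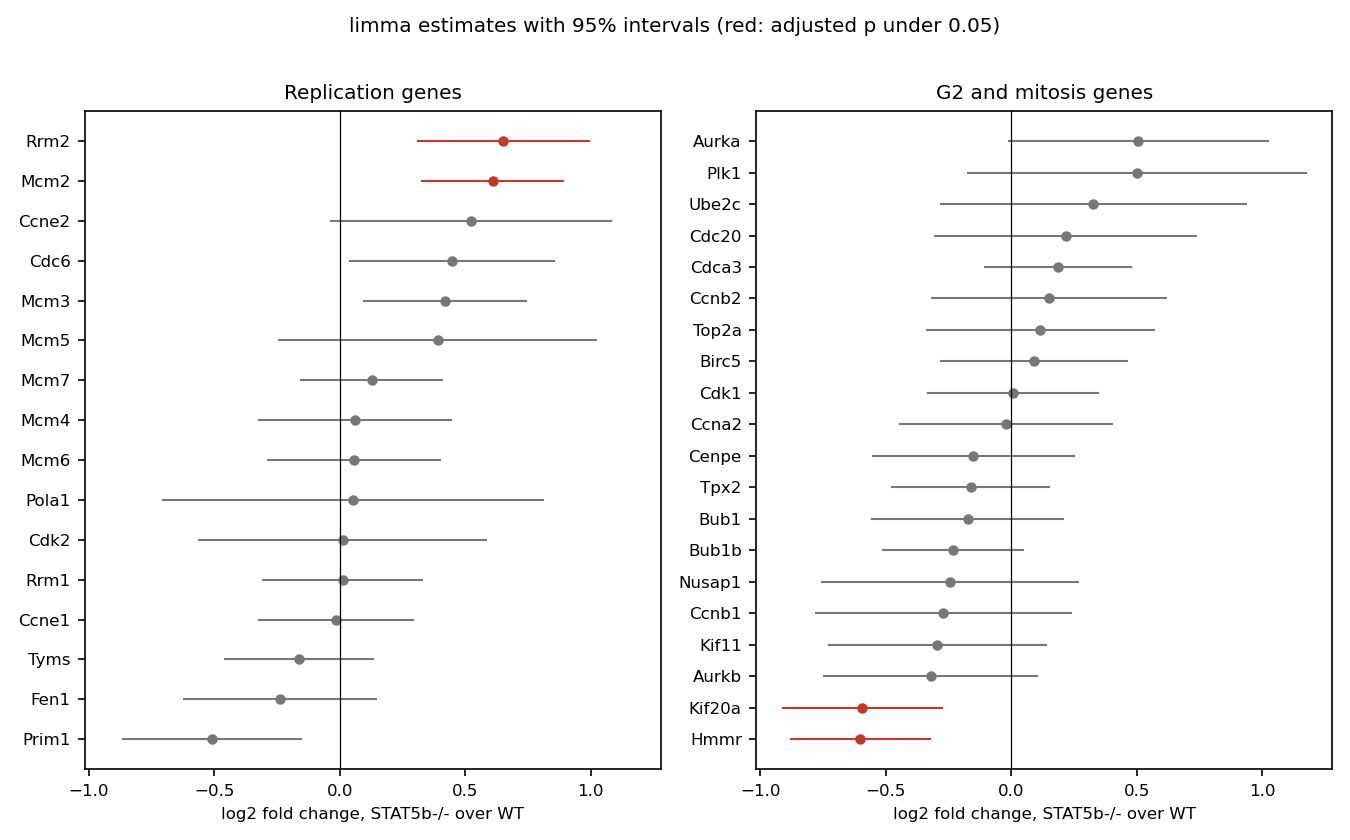
The limma log2 fold change of STAT5b-/- over WT (horizontal axis; points, n = 3 against 3) with its 95% interval (lines) for each replication and mitotic gene, in red where the adjusted p was under 0.05. Most intervals cross 0, with Mcm2 and Rrm2 wholly above it and Hmmr and Kif20a wholly below it; those of Mcm3, Cdc6 and Prim1 also clear it without passing after adjustment.

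Replication and mitosis genes were then set against each other within each array. The mean log2 ratio of the mitotic genes minus that of the replication genes was 0.097, -0.041 and -0.059 in WT replicates 1 to 3 and -0.23, -0.24 and -0.14 in STAT5b-/- replicates 1 to 3. All STAT5b-/- arrays were below all WT arrays. With medians over the genes in place of means the groups overlapped, at 0.12, -0.076 and -0.067 in WT against -0.24, -0.19 and -0.055. The group means were -0.0011 ± 0.0853 and -0.20 ± 0.0575 (SD, n = 3 each), a difference of -0.20 on the log2 scale, given as a description with no test since the genes were chosen by name with earlier results known. REF, with wild type genotype, was at 0.37, on the other side of WT. The replication means alone were 0.11, -0.22 and 0.057 in WT and 0.16, 0.098 and 0.14 in STAT5b-/-, and the mitotic means were 0.20, -0.26 and -0.0015 against -0.062, -0.14 and 0.0052. Neither mean by itself separated the groups in the way their difference did: the replication mean of STAT5b-/- replicate 2 was below that of WT replicate 1, and the mitotic means of STAT5b-/- lay inside the WT range. The difference kept its sign, between -0.15 and -0.23, with other array scaling, probe set choice and handling of floor values. The same held with 1 array left out, with medians over the genes and with genes of both phases left out. It was not computed with REF added to the WT group, with the replicate block or with another variance prior.

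**Figure D3:**
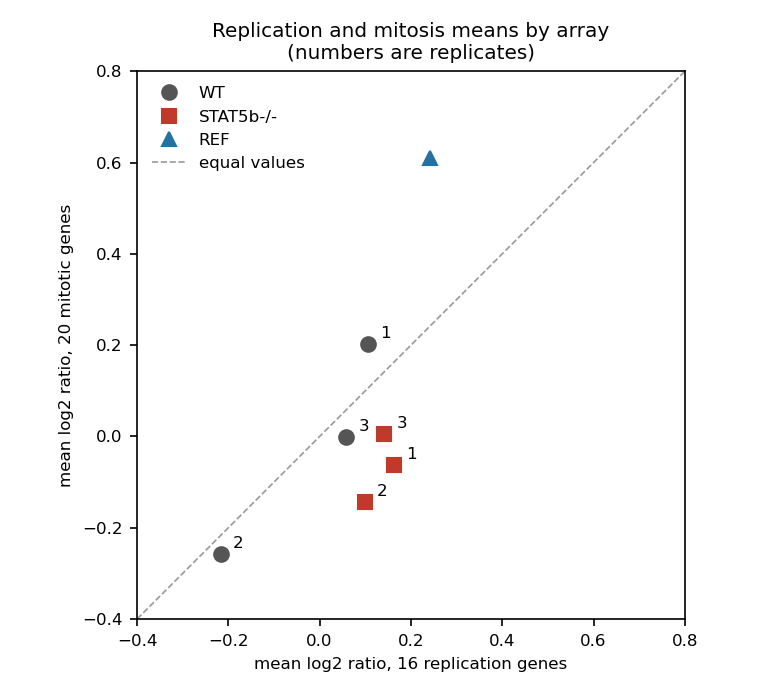
Mean log2 ratio to WT over the 16 replication genes (horizontal axis) and the 20 mitotic genes (vertical axis) in each array, with replicate numbers beside the points and a dashed line where both are equal. The WT arrays spread along the line from replicate 2 to replicate 1, the 3 STAT5b-/- arrays lie below the line and REF lies above it.

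The wild type samples differed among themselves in these genes: the mitotic mean spanned -0.26 to 0.20 over the WT arrays, while the group means were -0.019 in WT and -0.067 in STAT5b-/-. WT replicate 2 was the lowest of the WT arrays in 15 of the 20 mitotic and 11 of the 16 replication genes, against 33.0% of all genes, and WT replicate 1 was the highest in 18 mitotic and 8 replication genes, against 25.2% of all. REF was above all 3 WT arrays in 20 of 20 mitotic and 13 of 16 replication genes, against 20.1% of all genes, and above all 6 other arrays in 19 mitotic and 8 replication genes, against 6.38%. Cdca3, which promotes entry into mitosis, was the furthest, with a ratio of 2.21 in REF beside 1.06, 0.986 and 0.952 in WT and 1.08, 1.11 and 1.24 in STAT5b-/-. Ccnb2 followed at 1.87, the kinetochore motor Cenpe at 1.76 and the anaphase activator Cdc20 at 1.71. The median log2 difference of REF from WT was 0.60 over the mitotic genes and 0.28 over the replication genes, against -0.051 over all genes. In the limma test of REF as 1 sample against 3 WT arrays, 0 of all genes passed the adjusted threshold, 208 (1.45%) had an unadjusted p under 0.05, and 4 mitotic genes were among them (Cdca3, Ccnb2, Cenpe and Nusap1). Both comparisons share the WT arrays. The high values of REF and the spread of WT were measured in whole colon RNA, in which more dividing cells and more transcript per dividing cell cannot be told apart. Technical differences between samples cannot be told apart from these either, and REF is 1 sample whose nature the labels do not give.

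Other genes of the same machinery were taken from lists by role. Of 41 further replication genes 1 rose, Rfc2, and 1 fell, Cdc7, which is 4.88% called against 21.7% of all genes. Without WT replicate 1 the rises were 3, with Gins4 and Rpa3 beside Rfc2, and without WT replicate 2 the falls were 2, with Pole beside Cdc7. Rfc2, a subunit of the clamp loader, had ratios of 1.16, 0.851 and 0.993 in WT and of 2.26, 2.24 and 2.21 in STAT5b-/-, a log2 difference of 1.17 ± 0.15 (SE, limma adjusted p = 0.00255), with 1.19 in REF. Cdc7, the kinase that fires origins, fell by 0.61 ± 0.16 (limma adjusted p = 0.0363) to a mean ratio of 0.66, with 0.749 in REF. The call for Cdc7 ended without WT replicate 1 (adjusted p = 0.098), WT replicate 3 (0.0621), STAT5b-/- replicate 1 (0.106) or STAT5b-/- replicate 2 (0.122), and with REF added to the WT group (0.0662). Under quantile normalization the log2 fold change of Rfc2 was 0.74, and it did not pass (limma adjusted p = 0.203). Rpa3, of the single-strand binding complex, had 0.53 ± 0.18 and remained below the threshold (limma adjusted p = 0.0799).

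Of 57 further mitotic genes 0 rose and 6 fell (10.5%, against 8.42% of all genes that fell). The checkpoint kinase Ttk fell by 0.85 ± 0.17, from ratios of 0.841, 1.23 and 0.925 in WT to 0.590, 0.513 and 0.542 in STAT5b-/- (limma adjusted p = 0.0147). Aspm, of the spindle poles, fell by 0.54 ± 0.12 and Sgo1, the protector of centromeric cohesion, by 0.58 ± 0.13 (limma adjusted p = 0.0175 and 0.0207). The others were the motor Kif23, the condensin subunit Ncapd3 and the centromere protein Cenpi, with log2 fold changes of -0.57 ± 0.14, -0.51 ± 0.12 and -0.83 ± 0.23. The median of the list was -0.091, and that of the 20 mitotic members -0.086. Single arrays decided most of these calls: 1 of the 6 held without WT replicate 3 (Ttk), 2 without STAT5b-/- replicate 1 (Sgo1 and Ttk), 1 without replicate 3 (Kif23), 0 without replicate 2 and 2 without WT replicate 1 (Aspm and Ttk), where Cenpk joined them and Nek2 and Racgap1 passed as higher. REF was above all WT arrays in 47 of the 57, and in 22 of the 41 further replication genes. In the lists described below it was so in 16 of 25 G1 and E2F genes and 15 of 21 checkpoint and repair genes. It was so in 7 of 22 arrest genes and in 20.1% of all genes. The regulators Foxm1 and Mybl2 (B-Myb), which switch on the mitotic genes, were at -0.38 ± 0.25 and -0.14 ± 0.30 on the log2 scale, short of the threshold (limma adjusted p = 0.341 and 0.784).

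Among 25 genes of the G1 phase and the E2F network 3 rose (12.0%, against 13.3% of all genes) and 0 fell. Tfdp2, a dimer partner of E2F factors, rose by 0.83 ± 0.14 (limma adjusted p = 0.00844), with ratios of 1.14, 0.882 and 0.976 in WT and of 1.73, 1.92 and 1.66 in STAT5b-/-. Cdc25a, the phosphatase that activates Cdk2, rose by 0.64 ± 0.14 and E2f6, a repressive E2F, by 0.53 ± 0.13 (limma adjusted p = 0.0175 and 0.0272). Without STAT5b-/- replicate 1 or replicate 2 only Tfdp2 passed, and without WT replicate 2 E2f8 passed as lower. E2f1 had 0.38 ± 0.21, Ccnd1 (cyclin D1) 0.16 ± 0.14 and Myc -0.49 ± 0.30, all short of the threshold (limma adjusted p = 0.250, 0.498 and 0.303). Of 21 checkpoint and repair genes 0 passed by limma and 1 had an unadjusted p under 0.05, Atm, with -0.35 ± 0.15 (limma adjusted p = 0.142). Bard1, the partner of Brca1, and the mismatch repair gene Msh6 had the next smallest p, with log2 fold changes of -0.48 ± 0.23 and -0.24 ± 0.12.

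In a list of CDK inhibitors, arrest genes and related regulators such as Mdm2, chosen with earlier results known, a larger share passed. Of 22 measured CDK inhibitors and arrest genes 10 rose and 2 fell, 54.5% against 21.7% of all genes, with a median log2 fold change of 0.45; without STAT5b-/- replicate 1 or without replicate 3, 6 of the rises passed, and under quantile normalization 0. Gadd45a, a stress-induced arrest gene, had ratios of 1.07, 1.05 and 0.878 in WT, of 2.69, 2.56 and 2.96 in STAT5b-/- and of 1.14 in REF, and rose by 1.46 ± 0.14 (limma adjusted p = 0.000908). Cdkn1a, which encodes the CDK inhibitor p21, had 1.21, 0.724 and 1.07 in WT, 2.40, 2.78 and 2.15 in STAT5b-/- and 1.28 in REF. It rose by 1.31 ± 0.22, a 2.48-fold change (limma adjusted p = 0.00715). Cdkn2b, which encodes the Cdk4 and Cdk6 inhibitor p15, rose by 1.01 ± 0.15, Ccng2 (cyclin G2, tied to quiescence) by 1.03 ± 0.13 and Mdm2, the p53 ligase and p53 target, by 0.81 ± 0.12. The kinases that restrain Cdk1, Wee1 and Pkmyt1, rose by 0.80 ± 0.16 and 0.53 ± 0.14. Sesn2, Cdkn2c and Btg2 were the other rises. The ratios of Sesn2 were 4.06, 2.13 and 2.11 in STAT5b-/- replicates 1 to 3, highest in the male replicate 1, and it passed without that array. Of the 10 genes that rose, Cdkn2c and Pkmyt1 also had REF above all WT arrays, as did Gadd45a, Cdkn1a and Mdm2. Gadd45g went the other way, from ratios of 1.37, 0.904 and 0.726 in WT to 0.183, 0.155 and 0.167 in STAT5b-/-, with REF at 0.686. It fell by 2.52 ± 0.24 (limma adjusted p = 0.000922). Plk2 fell by 1.15 ± 0.18. Cdkn1b, which encodes p27, was at 0.069 ± 0.15 (limma adjusted p = 0.798).

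**Figure D4:**
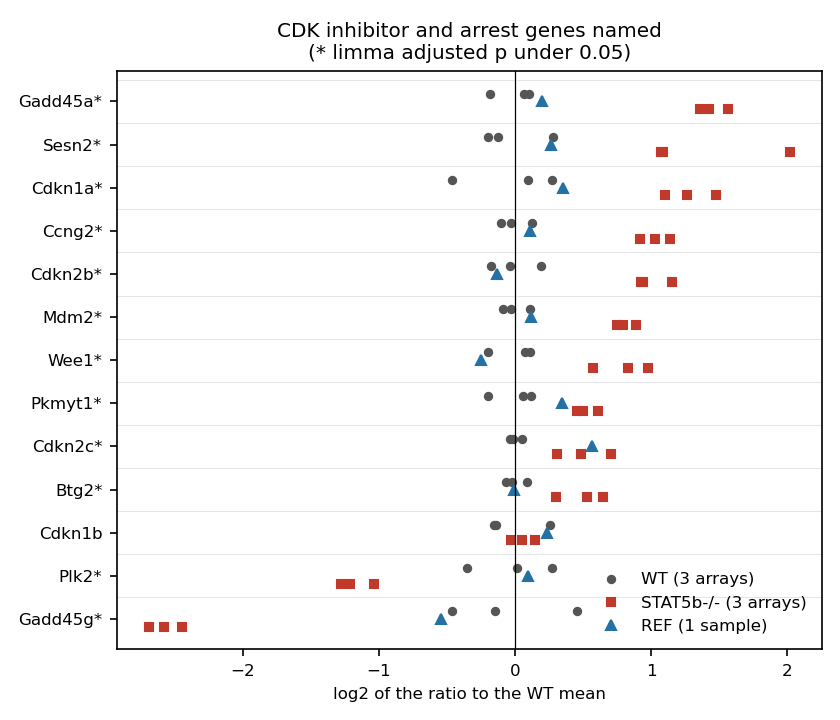
The log2 ratio to the WT mean (horizontal axis) in every array, for the 12 CDK inhibitor and arrest genes past the test and Cdkn1b. Circles are WT, squares STAT5b-/- and triangles REF, and an asterisk marks limma adjusted p under 0.05. The other genes among the 22 measured, none of which passed, are not drawn. The squares of all 10 genes that rose, among them Gadd45a, Sesn2, Cdkn1a, Ccng2 and Cdkn2b, lie right of all circles. Those of Plk2 and Gadd45g lie left of them, and REF lies near WT in most rows.

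**Figure D5:**
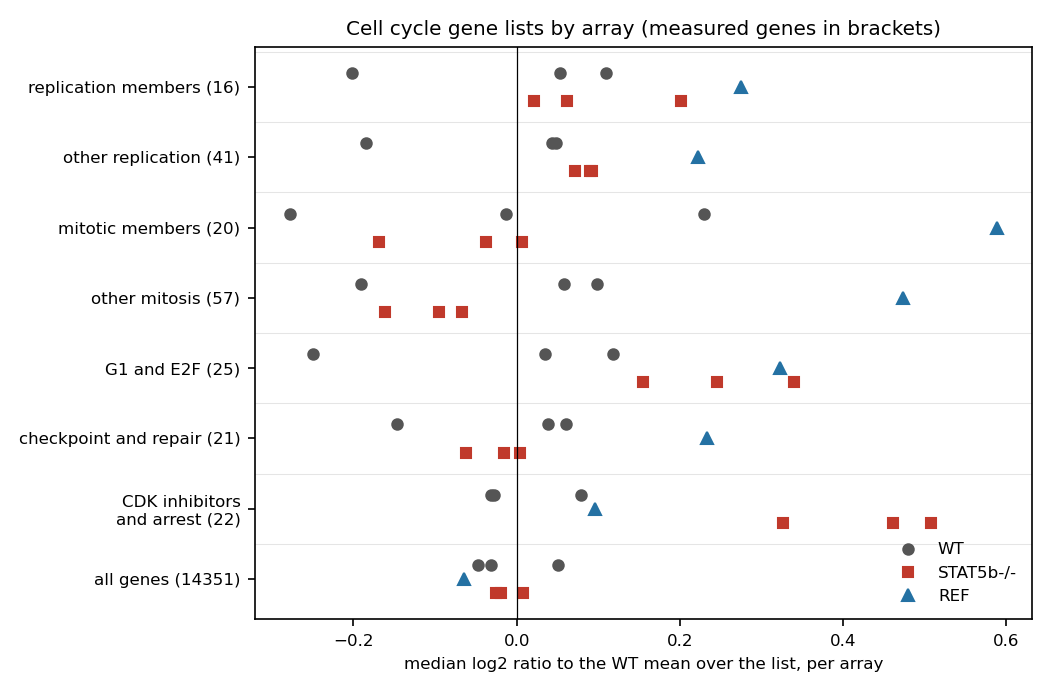
Median log2 ratio to the WT mean (horizontal axis) over each list of cell cycle genes in every array, with the number of measured genes in brackets. REF stands right of all other arrays in both mitotic lists, both replication lists and the checkpoint and repair list. WT replicate 2 is the leftmost WT array in every list except the arrest genes and all genes. The STAT5b-/- arrays stand right of all others in the arrest list.

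Markers of the cells that make up the colon are given as counts past the limma test, to be read against the 13.3% of all genes that were higher and the 8.42% that were lower. Crypt base and stem cell markers had 1 of 14 higher and 3 lower, with array medians of -0.065 to 0.055 in WT, -0.19 to 0.015 in STAT5b-/- and 0.11 in REF. Surface colonocyte markers, which mark cells that have left the cycle, had 8 of 12 higher and 1 lower, with medians of -0.016 to -0.0087 in WT and 0.57 to 0.77 in STAT5b-/-, and 0.051 in REF. Goblet cell markers had 0 of 10 higher and 8 lower, with medians of -0.053 to 0.042 in WT and -1.85 to -1.51 in STAT5b-/-. General epithelial markers had 3 of 11 higher and 1 lower, with medians of 0.25 to 0.45 in STAT5b-/- and 0.16 in REF. B and plasma cell markers had 4 of 12 lower, macrophage markers 7 of 10 and fibroblast markers 7 of 12, each with 0 higher, and T cell markers 3 of 11 higher and 2 lower. Of 9 smooth muscle markers 0 passed by limma and 0 had an unadjusted p under 0.05. Since each probe set was divided by its own WT mean, no marker could be called absent. The part of these markers in the cell cycle values was not tested.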

How the data were processed

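RNA of 8 arrays was analysed. The submitters' processing notes name RMA, with no version. Per the labels' protocols, biotin-labelled cRNA for Affymetrix arrays was made from amplified total RNA. The deposited values are a linear ratio: the mean of the 3 WT arrays is 1 in each of the 26180 probe sets, to within 1.87e-07. The number of arrays limits the precision. RefSeq accessions in the probe set names matched 15228 probe sets to 1 symbol each (GRCm38.p6 table) and left 10952 unnamed. Log2 ratios were averaged over a gene's probe sets and tested with limma 3.58.1 (lmFit, eBayes; R 4.3.3), STAT5b-/- against WT over 6 arrays and REF against WT over 4, with Benjamini-Hochberg adjustment over 14351 genes and a threshold of 0.05. Scripts were tested on simulated data. All members are accounted for; of each other list the rule names the 3 genes with the smallest p, and E2f1, Foxm1, Mybl2, Myc, Ccnd1, Cdkn1a and Cdkn1b; other called genes, and Cenpk, Nek2, Racgap1, Gins4, Pole and E2f8, were named after their values were seen. The members and lists were chosen with earlier results of these data known. Lists are described by counts and medians with no set test. Promoters came from the RefSeq promoter table. Alternatives covered array scaling, probe set choice, floor values, the variance prior, REF as wild type, each replicate and the replicate block.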

Additional observations from a re-analysis of the deposited data

How the results depend on the processing

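The number of arrays, 3 a group, limits what could be called: leaving out 1 array ended each of the 4 calls among the cell cycle genes at least once. Median centring, the probe set with the highest mean, probe sets at the floor and the robust variance prior kept the calls of Mcm2, Rrm2, Hmmr and Kif20a. Quantile normalization, which by construction gives every array the same spread, gave 158 higher and 239 lower over all genes. It gave 0 calls among the replication genes, the mitotic genes and the other lists. The WT arrays had the smaller spread, in part because each probe set was divided by its own WT mean. Equal spread thus widens the WT arrays and narrows the STAT5b-/- arrays, and how far that alone lowers the counts was not tested. Testing every probe set gave 2911 higher and 2188 lower, over more features. Leaving out 1 array gave 1053 to 2192 higher and 663 to 1359 lower over all genes, 0 to 2 replication genes higher, 0 to 3 mitotic genes lower, and 8 to 15 higher and 2 to 11 lower in the other lists. With REF added to the WT group 1 replication gene, Prim1, was lower (limma adjusted p = 0.0226). Under array scaling, an alternative chosen after seeing the data, REF stayed above all WT arrays in 20 mitotic genes, and in 14 replication genes with median centring and 11 with quantile normalization.

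Same-numbered WT and STAT5b-/- arrays had deviations from their group means that correlated at 0.036, -0.098 and -0.19 over all genes. The labels do not say whether the numbers pair the samples, and with 3 arrays a group these correlations cannot settle it. The replicate block gave 1238 higher and 801 lower over all genes, 1 replication gene higher (Rrm2), 0 mitotic genes lower, and 3 lower in the other lists.

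Of 70 named genes, none that passed the test changed sign under these alternatives. Genes near 0 did, without passing, and the cause was not tested. As log2 fold changes, with REF added to the WT group Birc5 was at -0.041, Ccnb2 at -0.082, Cdca3 at -0.099, Cdk1 at -0.14, Pola1 at -0.080, Rrm1 at -0.10 and Top2a at -0.042. With quantile normalization Ccne1 was at 0.014, Cdk1 at -0.013, Cdk2 at -0.045, Mybl2 at 0.013, Pola1 at -0.026 and Rrm1 at -0.019, and with median centring Ccna2 was at 0.0058 and Ccne1 at 0.0098. Leaving out 1 array gave ranges of -0.024 to 0.21 for Birc5, -0.17 to 0.12 for Ccna2, -0.022 to 0.27 for Ccnb2, -0.070 to 0.060 for Ccne1, -0.078 to 0.11 for Cdk1, -0.21 to 0.17 for Cdk2, -0.0037 to 0.20 for Cdkn1b, -0.084 to 0.18 for Mcm4, -0.052 to 0.11 for Mcm6, -0.35 to 0.22 for Mybl2, -0.30 to 0.31 for Pola1, -0.075 to 0.095 for Rrm1 and -0.074 to 0.27 for Top2a.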
